A study of Mus musculus with 6 samples.

Results

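The genes described here encode the non-collagen proteins of the extracellular matrix and the enzymes and chaperones that crosslink and mature it. They were chosen by name, as 40 genes for matrix glycoproteins, proteoglycans, elastic fibre proteins and crosslinking enzymes, and 38 of them were found among the 17313 genes of the deposited table. Eln, the elastin gene, and Mfap4 were not analysed here. RNA was sequenced from macrophages grown in culture from bone marrow of C57BL/6 mice (bone marrow-derived macrophages). Both groups had floxed Hdac2 alleles and bore tumours: LLC1, an established Lewis lung carcinoma cell line of mouse, was injected into a vein, and marrow was collected on day 20. The WT group (Hdac2fl/fl, no Cre, 3 libraries) had an intact Hdac2 gene, which encodes a histone deacetylase. The KO group (Hdac2fl/fLysMCre as the series text writes it, 3 libraries) carried LysM-Cre, a recombinase expressed from the lysozyme gene Lyz2 and active in myeloid cells. The age of the mice is not stated in the labels used here. The labels leave unsaid whether the libraries of a group are from different mice, and the p-values reflect only the spread among these libraries, some of which may be technical.

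The extracellular matrix is built outside the cell from collagens and from the proteins treated here. Fibronectin and the matricellular proteins connect matrix to cell surface receptors and growth factors, fibrillins and their partners form the microfibrils on which elastin is laid down, and proteoglycans carry long sugar chains that hold water and bind growth factors. Lysyl oxidases then crosslink collagen and elastin. In bone marrow these genes are best known from stromal cells, osteoblasts and vessel walls, while macrophages are known mainly for taking up and degrading matrix and for making some of its components, fibronectin and thrombospondin among them.

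Values are read counts per gene that had been scaled by library and rounded, called scaled counts below, and they summed to between 5704313 and 5837994 per library. Hdac2 read 534, 482 and 518 in WT (511 ± 26.6, SD, n = 3), with 392, 387 and 375 in KO (385 ± 8.74, SD, n = 3), so the KO libraries were the lower ones, with reads remaining. Which exon was deleted is not stated in the sources used here. The libraries also differed apart from genotype. Xist, the RNA of the silenced X chromosome in female cells, had 5243 scaled counts in WT 1, 0 in WT 2 and 74 in WT 3, with 4726, 4997 and 3298 in KO. Ddx3y, a Y-linked gene, was at 44, 308 and 745 in WT 1, WT 2 and WT 3, and at 10 or less in each KO library. WT 1 thus shared the high Xist level of the KO libraries, while its Hdac2 value was the highest of all 6, on the side of its WT label. Whether the mice were of mixed sex, or libraries were exchanged or mixed, was not tested, and the labels are used as given. Genotype and this split coincide once WT 1 is left out and cannot be told apart in that fit. The main counts and medians over the tested matrix genes are therefore given with all libraries, without WT 1, and against WT 1 alone. For many single genes and for the other lists only some of these comparisons are given.

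The matrix genes were at low values in WT 2 and WT 3 and at high values in WT 1 and in all KO libraries. Summed over the 38 genes, they held 43761 scaled counts in WT 1, 21136 in WT 2 and 22019 in WT 3, against 52848, 50083 and 45602 in KO 1, KO 2 and KO 3. In shares of the library total these sums were 0.750%, 0.365% and 0.381% in the WT libraries and 0.908%, 0.862% and 0.799% in the KO libraries. All KO sums lay above all WT sums, but WT 1 was much closer to KO 3 than to the other WT libraries. In bulk RNA, more cells of a producing type and more RNA per cell cannot be told apart.

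Markers of stromal cells were high and low in the same libraries as the matrix genes. The 16 fibroblast and marrow stroma markers, all present in the table, summed to 10772, 4921 and 4803 in WT 1, WT 2 and WT 3 and to 14837, 13329 and 11100 in the KO libraries. The 8 smooth muscle and pericyte markers summed to 2964, 1318 and 1470 and to 3446, 3375 and 3540. Both sums were lowest in WT 2 and WT 3, as the matrix genes were, and WT 1 lay between these and the KO libraries. Their levels were unequal: the collagen gene Col1a1 was at 3547, 1798 and 1858 in WT, with 3953, 3914 and 3767 in KO, and the mesenchymal growth factor receptor gene Pdgfrb was at 818, 196 and 204 and at 1269, 1082 and 931, while Lepr, the leptin receptor gene that marks marrow stroma, was at or near 0, at 2, 0 and 1 and at 9, 2 and 0, and the mesenchymal factor gene Twist2 was at 5, 1 and 0 and at 10, 13 and 11. The 12 macrophage markers summed to between 15729 and 15858 in WT and between 14234 and 14618 in KO, so the labelled cell type was present throughout, with slightly lower sums in KO. Among them Lyz2, the gene from which LysM-Cre is expressed, was at 1068, 1144 and 1055 in WT, with 930, 942 and 953 in KO. Whether the Cre allele lowered it was not tested. Past the threshold without WT 1, 13 of 15 tested stromal markers, 7 of 8 smooth muscle markers and 0 of 12 macrophage markers were higher in KO, against 12.8% of all genes. There 2 macrophage markers, Lyz2 and Spi1, were lower, against 5.07%. Testing required 10 scaled counts in 3 or more libraries. Some markers, Twist2 among them, reached that only through the libraries in which they were high, so these counts are descriptions. With all libraries none of these lists had a gene past the adjusted threshold (limma). At an unadjusted p under 0.05, 12, 8 and 0 were higher, against 14.7% of all genes, and 0, 0 and 6 lower, against 9.68%. The 8 endothelial markers summed to 836, 1481 and 888 in WT, with 508, 574 and 825 in KO, most of it Vwf, the von Willebrand factor gene. Without Vwf the other 7 summed to 210, 107 and 98 in WT, with 192, 170 and 185 in KO, lowest in WT 2 and WT 3 as the matrix genes were. What part these cell types had in the matrix results was not tested.

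**Figure D1:**
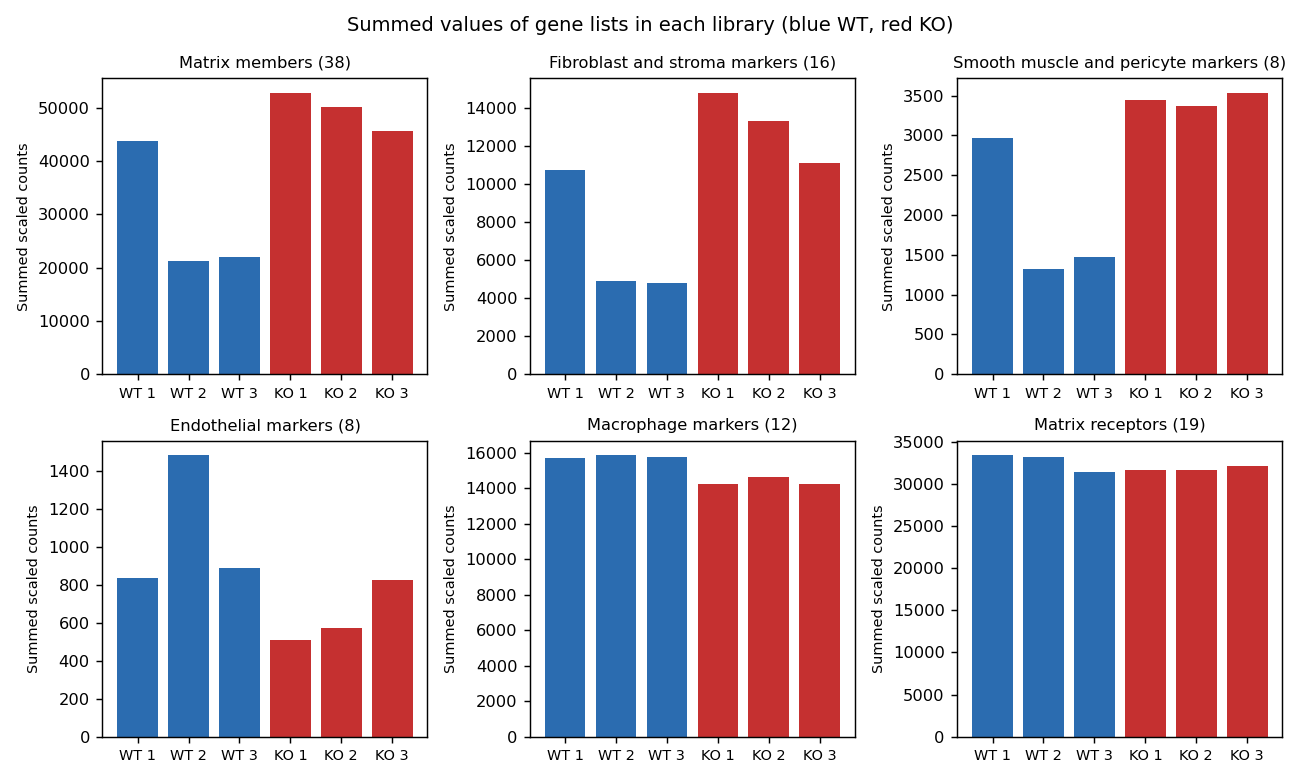
Summed scaled counts (vertical axes, starting at 0) of the 38 matrix genes, of 4 cell type marker lists and of 19 matrix receptor genes in each library, WT in blue and KO in red, with the number of genes in brackets. The matrix genes and the stromal and smooth muscle markers are lowest in WT 2 and WT 3, while the macrophage markers stay between 14234 and 15858.

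Of the 38 genes, 37 reached 10 scaled counts in 3 or more libraries and were tested. Lum, the gene of lumican, a proteoglycan of collagen fibrils, did not, at 2, 0 and 0 in WT, with 6, 11 and 0 in KO. Some passed this filter only through the libraries in which they were high, so counts over the tested genes are descriptions. The KO mean was above the WT mean on the log2(value + 1) scale in 36 of the 37, against 49.1% of all 13260 genes tested, and the median difference, KO minus WT, was 1.10 against -0.0046 over all genes tested. The groups did not overlap, with KO higher, in 22 of the 37, against 16.1% of all genes, and did not overlap with KO lower in 0, against 13.4%. For these 22 genes the exact permutation test (two-sided) gave 0.1, the smallest p that 3 against 3 libraries allow. Groups that do not overlap always give this value, so it adds nothing to the count.

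No single gene passed the test with all libraries. With limma and Benjamini-Hochberg adjustment over all genes, 0 of the 37 were higher and 0 lower past the threshold of 0.05 (the smallest adjusted p was 0.158), and over all genes 0% passed in either direction. At an unadjusted p under 0.05, 29 were higher and 0 lower, against 14.7% and 9.68% of all genes. With 1 library left out, the count of higher genes was 7 without WT 2 (9.63% of all genes), 7 without WT 3 (8.18%), 7 without KO 1 (7.19%), 12 without KO 2 (8.35%) and 19 without KO 3 (12.6%). The spread within the WT group was the wider one: the SD was 60.1% of the mean in WT and 8.52% in KO, as medians over the 37 genes, and in 26 of them the highest WT library was more than 2 times the lowest.

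Library WT 1 decided whether the genes passed. Without it, 31 of the 37 were higher in KO past the threshold (limma adjusted p from 0.000321 to 0.0271), against 12.8% of all genes, and 0 were lower, against 5.07%, with a median difference of 1.55. The genes that did not pass there were Emilin1, Emilin2, Plod1, Matn2, Postn and Dcn. WT 1 lay above both other WT libraries in 34 of the 37 genes, against 32.7% of all genes, and was nearer to the KO mean than to the mean of WT 2 and WT 3 in all 37, against 66.4%. Against WT 1 alone, with its variance taken from the KO libraries, the median difference was 0.22, and 0 genes passed, against 0% of all genes (smallest limma adjusted p = 0.790). In this comparison 9 genes had an unadjusted p under 0.05 and were higher, against 5.17% of all genes, and 0 were lower, against 1.06%. They were Hspg2, Fbn1, Fbln1, Fbln2, Efemp2, Nid1, Nid2, Loxl1 and Loxl4. The KO mean lay above WT 1 in 32 of the 37 genes, against 49.6% of all genes, and all KO libraries did so in 22, against 28.4%.

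**Figure D2:**
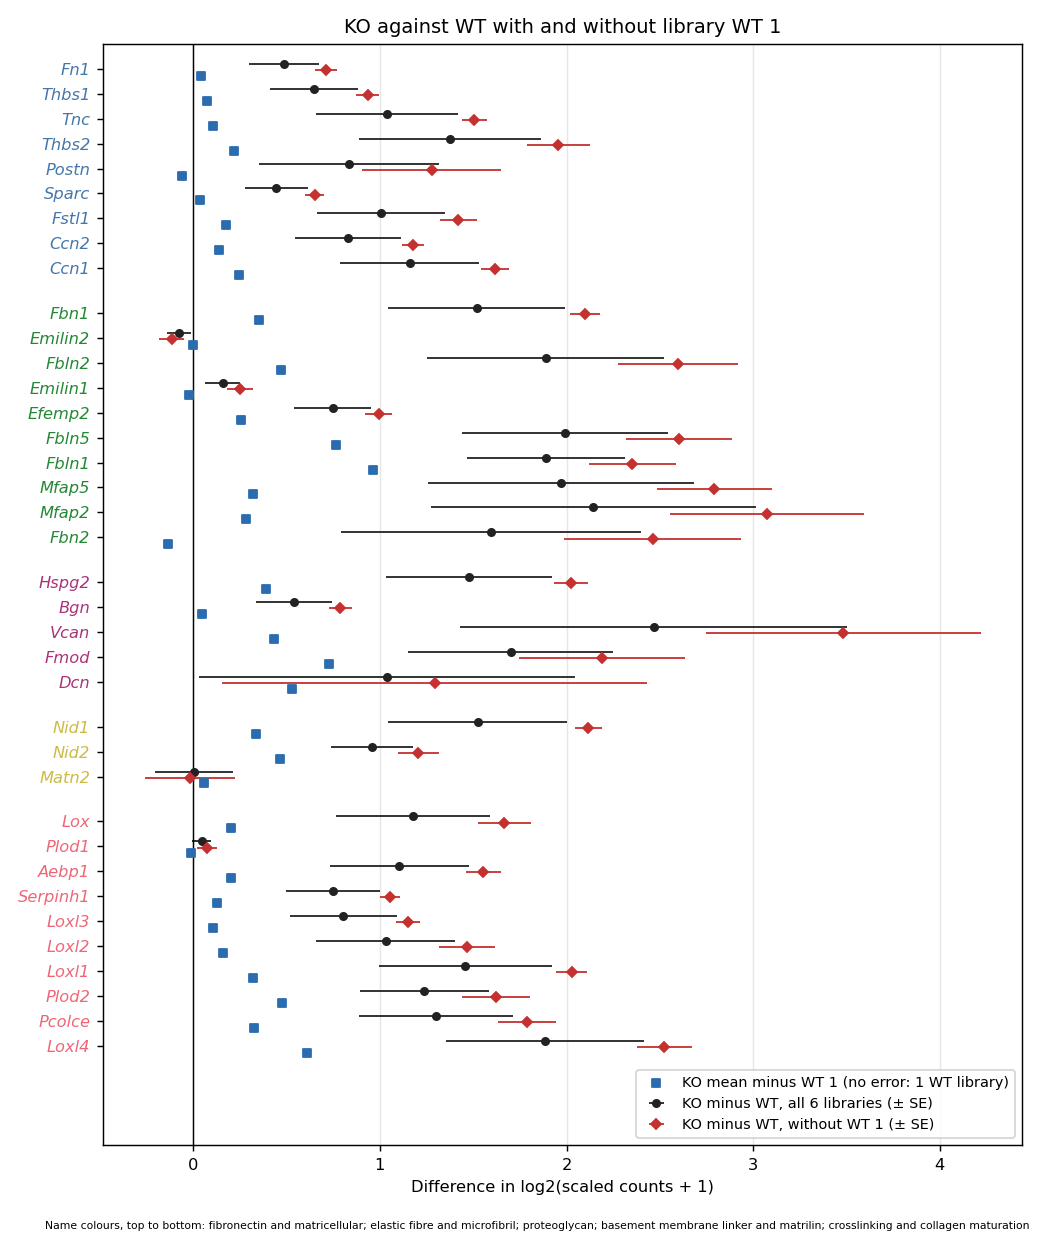
Differences in log2(scaled counts + 1) for the 37 tested genes (horizontal axis), by role: KO minus WT with all libraries (black, ± SE) and without WT 1 (red, ± SE), and the KO mean minus WT 1 (blue, no error with 1 WT library). Leaving out WT 1 moves the median from 1.10 to 1.55, and the blue points have a median of 0.22 and reach 0.97 for Fbln1.

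The sequences just before the start sites of some of these genes are shown because the genes were high and low together across libraries and the series title names SP1, a transcription factor that binds the GC box. RefSeq promoter windows (GRCm38.p6, the 250 bases before the annotated start) were at hand for 24 of the 40 genes. The windows of 6 genes from 4 roles are printed, 5′ to 3′ on the gene's strand, with Plod1 as a gene whose level varied little. All 6 hold a GC box, as 15 of the 24 windows do. Capitals mark matches, on either strand, to the GC box GGGCGG, to GGAATG, the core bound by TEAD factors, to the AP-1 site TGAGTCA and to TATAAA.
Tnc, chr4:64047016-64047265, minus strand: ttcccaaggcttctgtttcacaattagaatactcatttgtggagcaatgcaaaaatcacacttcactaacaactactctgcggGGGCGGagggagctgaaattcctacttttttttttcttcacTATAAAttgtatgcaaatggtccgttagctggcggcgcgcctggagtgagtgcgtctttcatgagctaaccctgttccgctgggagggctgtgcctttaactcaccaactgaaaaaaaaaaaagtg
Ccn1, chr3:145649986-145650235, minus strand: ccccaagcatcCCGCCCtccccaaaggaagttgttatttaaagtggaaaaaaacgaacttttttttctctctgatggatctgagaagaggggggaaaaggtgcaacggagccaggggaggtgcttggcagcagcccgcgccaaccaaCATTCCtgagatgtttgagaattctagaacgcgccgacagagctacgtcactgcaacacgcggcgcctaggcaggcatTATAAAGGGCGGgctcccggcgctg
Efemp2, chr19:5473696-5473945, plus strand: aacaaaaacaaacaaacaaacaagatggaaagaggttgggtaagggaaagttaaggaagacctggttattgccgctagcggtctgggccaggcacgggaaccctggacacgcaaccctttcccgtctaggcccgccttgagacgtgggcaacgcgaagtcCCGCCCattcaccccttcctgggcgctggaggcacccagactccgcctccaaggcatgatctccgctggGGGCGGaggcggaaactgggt
Hspg2, chr4:137468553-137468802, plus strand: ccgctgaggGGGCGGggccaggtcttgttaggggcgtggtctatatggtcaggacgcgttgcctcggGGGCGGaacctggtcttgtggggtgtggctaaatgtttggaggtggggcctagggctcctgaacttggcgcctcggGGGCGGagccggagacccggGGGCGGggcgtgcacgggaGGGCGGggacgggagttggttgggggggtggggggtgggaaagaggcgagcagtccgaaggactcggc
Loxl4, chr19:42612807-42613056, minus strand: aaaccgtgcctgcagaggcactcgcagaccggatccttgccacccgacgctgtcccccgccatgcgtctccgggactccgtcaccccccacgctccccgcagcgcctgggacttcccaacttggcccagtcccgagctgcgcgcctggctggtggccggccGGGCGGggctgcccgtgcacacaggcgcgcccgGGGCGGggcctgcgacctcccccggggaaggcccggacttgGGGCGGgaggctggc
Plod1, chr4:147936777-147937026, minus strand: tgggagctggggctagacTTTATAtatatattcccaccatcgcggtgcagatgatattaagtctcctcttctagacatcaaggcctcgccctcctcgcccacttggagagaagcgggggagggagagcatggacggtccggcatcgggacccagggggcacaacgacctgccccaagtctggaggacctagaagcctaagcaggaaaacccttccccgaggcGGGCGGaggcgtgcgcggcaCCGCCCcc

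GC boxes were found in 15 of the 24 windows (62.5%), against 32.7% of all 32851 promoter windows of the same length. Each member had only the window nearest its annotated start, while all windows were limited neither by gene nor to the genes tested. Hspg2 held 5 of them, Loxl4 3, and Ccn1, Efemp2 and Plod1 2 each. The windows of the members were also richer in G and C, with a median of 59.2% against 52.4% over all windows, and the GC box itself is made of these bases. The TEAD core was found in 3 windows (12.5%, against 12.6% of all windows), TATAAA in 5 (20.8% against 12.4%) and the AP-1 site in 0, against 4.46%. In Ccn1, TATAAA began 25 bases before the start and was followed without a gap by a GC box, and the TEAD core began 103 bases before it. Plod1, whose level did not differ between groups beyond the spread, held GC boxes as well. The windows of Emilin1 and Emilin2, which also differed little, held none. Those of Aebp1, Fbln1, Fmod, Mfap2, Postn, Sparc and Thbs2 held none either. What part GC boxes had in the levels was not tested. A match to these letters is a description of the sequence, not a bound site.

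Fibronectin and the matricellular genes held the largest sum of the roles, 21723, 10581 and 11501 in WT, with 24230, 23351 and 21719 in KO, so KO 3 lay just below WT 1. Fn1 (ENSMUSG00000026193, chromosome 1, 71585520 to 71653200, mm10), which encodes fibronectin, stood at 6452, 4090 and 4011 in WT, with 6730, 6697 and 6491 in KO. Thbs1 (chromosome 2, 118111876 to 118127133), the gene of thrombospondin 1, an activator of latent TGF-beta, was at 3866, 2119 and 2141 and at 4234, 4098 and 3899. Every KO library exceeded every WT library in both genes, but WT 1 missed the lowest KO library by little. The differences were 0.49 ± 0.19 (SE) for Fn1 and 0.65 ± 0.24 for Thbs1 on the log2 scale with all libraries, 0.71 ± 0.06 and 0.94 ± 0.06 without WT 1, and 0.041 and 0.076 against WT 1.

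Tenascin C, thrombospondin 2 and the CCN genes showed larger gaps. Tnc (chromosome 4, 63959785 to 64047015), which encodes a glycoprotein made during wound repair, was at 3151, 1124 and 1268 in WT, with 3415, 3396 and 3362 in KO, a log2 difference of 1.04 ± 0.38. Its KO libraries lay close together, at 3391 ± 26.9 (SD, n = 3). Thbs2 was at 1829, 491 and 610 and at 2517, 2175 and 1756, and here WT 1 lay above KO 3, with a difference of 1.38 ± 0.49. Ccn2, a matricellular gene induced by TGF-beta and by the YAP and TEAD factors, was at 1168, 561 and 574 and at 1335, 1286 and 1233. Its relative Ccn1, whose promoter window is printed above, was at 715, 276 and 275 and at 916, 837 and 793. Ccn1 and Ccn2 had differences of 1.16 ± 0.37 and 0.83 ± 0.28, with WT 2 and WT 3 almost equal in each gene. Against WT 1 the differences were 0.11 for Tnc, 0.22 for Thbs2, 0.24 for Ccn1 and 0.14 for Ccn2.

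Sparc, Fstl1 and Postn completed this role. Sparc, which encodes a collagen-binding glycoprotein, was at 1432, 933 and 937 in WT, with 1505, 1466 and 1435 in KO, so that WT 1 was just below the lowest KO library. Fstl1, the gene of a secreted follistatin-like glycoprotein, was at 1355, 541 and 604 and at 1671, 1558 and 1382. The differences were 0.45 ± 0.17 for Sparc and 1.01 ± 0.34 for Fstl1. Postn, which encodes periostin, a matrix protein of bone and fibrous tissue, was at 1755, 446 and 1081 and at 1907, 1838 and 1368. Postn broke the pattern, since WT 3 was more than 2 times WT 2 and WT 1 lay above KO 3. Its difference was 0.83 ± 0.48 with all libraries, and it missed the threshold without WT 1 (limma adjusted p = 0.0690). Over the 9 genes of this role the median difference was 0.83 with all libraries and 0.11 against WT 1. Every KO library was above every WT library in 7, against 16.1% of all genes. Without WT 1, 8 were higher past the threshold, against 12.8% of all genes.

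**Figure D3:**
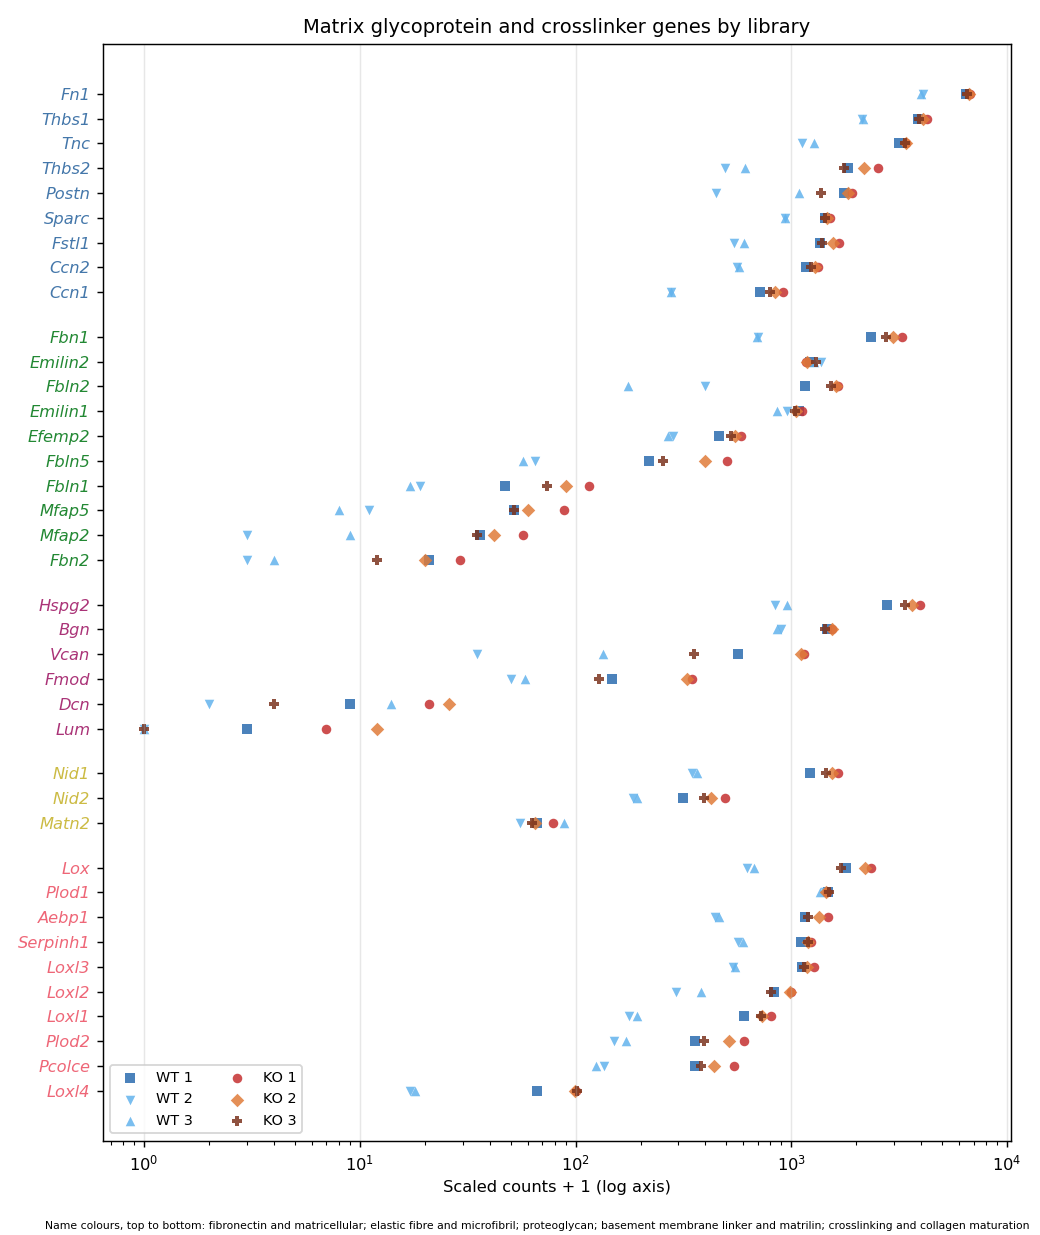
Scaled counts plus 1 (horizontal log axis) of the 38 genes in each of the 6 libraries, by role (colour of the gene names). WT 2 and WT 3 (light blue triangles) lie to the left of the other libraries for most genes, WT 1 (blue squares) lies beside the KO libraries, and all libraries fall together for Plod1 and Emilin2.

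Genes of elastic fibres and microfibrils split into strongly separated and nearly constant ones. Fbn1 (chromosome 2, 125300594 to 125507993), which encodes fibrillin 1, the core of microfibrils, was at 2334, 698 and 690 in WT, with 3257, 2955 and 2751 in KO. Fbln2 (chromosome 6, 91212455 to 91272540), the gene of fibulin 2, a linker between microfibrils and other matrix proteins, was at 1152, 396 and 174 and at 1643, 1609 and 1532. In both, all KO libraries exceeded WT 1, and WT 1 was 3.36 and 4.04 times the mean of WT 2 and WT 3. The differences were 1.52 ± 0.47 for Fbn1 and 1.89 ± 0.64 for Fbln2 with all libraries, and 0.35 and 0.47 against WT 1.

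The remaining fibulins followed. Efemp2 (fibulin 4), which brings lysyl oxidase to elastic fibres, was at 461, 283 and 268 in WT, with 582, 545 and 524 in KO, a difference of 0.75 ± 0.21. Fbln5, needed for elastic fibre assembly, was at 217, 64 and 56 and at 503, 395 and 253. Fbln1, the gene of fibulin 1, was at 46, 18 and 16 and at 115, 89 and 73. The differences were 1.99 ± 0.55 for Fbln5 and 1.89 ± 0.42 for Fbln1, and neither gene overlapped between groups. Fbln1 had the largest difference against WT 1 of the 37 genes, 0.97, and its KO mean of 92.3 ± 21.2 (SD, n = 3) was 2.01 times the value of WT 1. Low values were found for 3 microfibril genes. Mfap5 was at 51, 10 and 7 and at 87, 59 and 51, Mfap2 at 35, 2 and 8 and at 56, 41 and 34, and the fetal fibrillin gene Fbn2 at 20, 2 and 3 and at 28, 19 and 11. WT 1 lay within the KO range in these 3 genes, and WT 2 and WT 3 were at 10 or less. Without WT 1 the differences were 2.79 ± 0.31, 3.07 ± 0.52 and 2.46 ± 0.47, and Mfap2 and Fbn2 passed the filter only through WT 1 and the KO libraries.

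The emilins, glycoproteins at the surface of elastic fibres, differed little between groups. Emilin2 was at 1218, 1366 and 1273 in WT, with 1171, 1187 and 1296 in KO, a difference of -0.078 ± 0.065. Cyclic loess, a scaling that removes shifts depending on abundance, made it 0.0058. Emilin1 was at 1090, 951 and 853 and at 1122, 1055 and 1040, a difference of 0.16 ± 0.09 with all libraries and of -0.024 against WT 1. Neither passed with or without WT 1 (limma adjusted p = 0.501 and 0.304 for Emilin2, 0.344 and 0.0629 for Emilin1). Of the 10 tested genes of this role, 9 had the higher mean in KO, against 49.1% of all genes. The groups did not overlap, with KO higher, in 5, against 16.1%. Without WT 1, 8 were higher past the threshold, against 12.8%. The median difference was 1.74, and 0.30 against WT 1.

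Among the proteoglycans, Hspg2 (chromosome 4, 137468769 to 137570630) was the most abundant. It encodes perlecan, a heparan sulfate proteoglycan of basement membranes, and was at 2772, 838 and 951 in WT, with 3929, 3620 and 3372 in KO. All KO libraries exceeded WT 1, with differences of 1.48 ± 0.45 with all libraries, 2.02 ± 0.09 without WT 1 and 0.39 against WT 1. Biglycan (Bgn), a small proteoglycan that binds collagen and signals through Toll-like receptors, is encoded on the X chromosome. It was at 1460, 893 and 853 and at 1547, 1548 and 1429, so WT 1 lay above KO 3. The difference was 0.54 ± 0.21 with all libraries and 0.046 against WT 1.

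Vcan, Fmod and Dcn varied more between libraries than Hspg2 and Bgn. Vcan, the gene of versican, a large hyaluronan-binding proteoglycan, was at 567, 34 and 133 in WT, with 1148, 1104 and 353 in KO. Fmod, which encodes fibromodulin, a regulator of collagen fibril growth, was at 147, 49 and 57 and at 347, 328 and 128. In both genes KO 3 fell below WT 1, although it stayed above WT 2 and WT 3. Decorin (Dcn) was at 8, 1 and 13 and at 20, 25 and 3, close to the lower limit of what these libraries measure. The differences were 2.47 ± 1.04 for Vcan, 1.70 ± 0.55 for Fmod and 1.04 ± 1.01 for Dcn. Of the 5 tested proteoglycan genes, 1 did not overlap between groups (Hspg2), where 16.1% of all genes did not overlap with KO higher, and 4 were higher past the threshold without WT 1, against 12.8% of all genes.

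The nidogens, which link laminin to collagen IV and perlecan in basement membranes, showed the order of libraries seen for Hspg2. Nid1 (chromosome 13, 13437551 to 13512269) was at 1220, 345 and 365 in WT, with 1642, 1542 and 1448 in KO, a difference of 1.52 ± 0.48. Nid2 was at 314, 184 and 191 and at 492, 425 and 391, a difference of 0.96 ± 0.22. Neither overlapped between groups, both passed without WT 1 (limma adjusted p = 0.000321 and 0.00162), and both lay above WT 1 in all KO libraries, by 0.34 and 0.47. Matn2, the gene of matrilin 2, an adaptor protein of filamentous matrix, was at 65, 54 and 87 and at 78, 64 and 62. Its groups overlapped, its difference was 0.0061 ± 0.21, and the sign turned under upper-quartile rescaling and cyclic loess.

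Genes of the lysyl oxidase family were all higher in the KO mean. Lox, the founding enzyme that oxidises lysines of collagen and elastin, was at 1787, 619 and 673 in WT, with 2340, 2186 and 1691 in KO. Loxl3 was at 1117, 536 and 545 and at 1280, 1187 and 1145, and Loxl2, an enzyme active on collagen IV, was at 827, 290 and 382 and at 993, 984 and 803. WT 1 lay above KO 3 in Lox and Loxl2 and below all KO libraries in Loxl3. Loxl1, which acts on elastic fibres, was at 601, 175 and 192 and at 807, 727 and 721. Loxl4, whose promoter window is printed above, was at 65, 16 and 17 and at 100, 98 and 101. The KO libraries of Loxl4 were close together, 99.7 ± 1.53 (SD, n = 3), and stood 1.53 times above WT 1. With all libraries the differences were 1.18 ± 0.41 for Lox, 1.46 ± 0.46 for Loxl1 and 1.03 ± 0.37 for Loxl2. For Loxl3 and Loxl4 they were 0.80 ± 0.29 and 1.89 ± 0.53. Against WT 1 the differences were 0.20 for Lox, 0.32 for Loxl1, 0.16 for Loxl2, 0.11 for Loxl3 and 0.61 for Loxl4.

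Lysyl hydroxylases prepare collagen lysines for crosslinking, and their 2 genes here had different patterns. Plod1 (chromosome 4, 147909753 to 147936767) was at 1484, 1435 and 1357 in WT, with 1464, 1447 and 1498 in KO, 1425 ± 64.0 against 1470 ± 26.0 (SD, n = 3). Plod2 (chromosome 9, 92542223 to 92608428), which hydroxylates the collagen telopeptides, was at 356, 150 and 171 and at 601, 513 and 393. Plod1 overlapped between groups with a difference of 0.045 ± 0.049 (limma adjusted p = 0.617, and 0.391 without WT 1). For Plod2, all KO libraries exceeded all WT libraries, with differences of 1.24 ± 0.35, 1.62 ± 0.18 without WT 1 and 0.47 against WT 1. Whether the differences of these genes themselves differ was not tested.

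Chaperones and helpers of collagen maturation were in the separated group. Serpinh1, which encodes the collagen chaperone HSP47, was at 1107, 568 and 596 in WT, with 1238, 1196 and 1200 in KO. Aebp1, the gene of a collagen-binding carboxypeptidase-like protein, was at 1158, 444 and 463 and at 1481, 1337 and 1199. Pcolce, an enhancer of procollagen cleavage, was at 357, 134 and 124 and at 541, 436 and 381. The differences were 0.75 ± 0.25, 1.10 ± 0.37 and 1.30 ± 0.41, and 0.13, 0.20 and 0.33 against WT 1. Of the 10 crosslinking and maturation genes, 7 did not overlap between groups, with KO higher, against 16.1% of all genes. Without WT 1, 9 were higher past the threshold, all but Plod1, against 12.8% of all genes. The median difference was 1.14 with all libraries and 0.20 against WT 1.

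Levels of different genes were compared per exonic base. Thbs1 had the highest KO mean of the 38 genes on that scale, 0.671 scaled counts per exonic base, followed by Fn1 at 0.568 and Serpinh1 at 0.496, while Lum, Dcn and Fbn2 were at 0.0023, 0.0027 and 0.0015. No gene of the table had a mean above 1 per exonic base, and the highest was 0.850. Of the genes tested, the 11 at 0.3 or more in KO had a median difference of 1.42 without WT 1 (from 0.65 to 1.96), the 14 between 0.1 and 0.3 had 1.37 (from -0.12 to 2.60), and the 12 under 0.1 had 2.41 (from -0.019 to 3.48). The differences above 3 were found for Vcan and Mfap2, both under 0.1 per exonic base. The KO mean that sets these groups also enters the difference. Mfap2 and Fbn2, in the lowest group, passed the filter only through WT 1 and the KO libraries. The medians of the groups are therefore descriptions. The most abundant genes, Thbs1 and Fn1, were below 1 on the same scale.

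**Figure D4:**
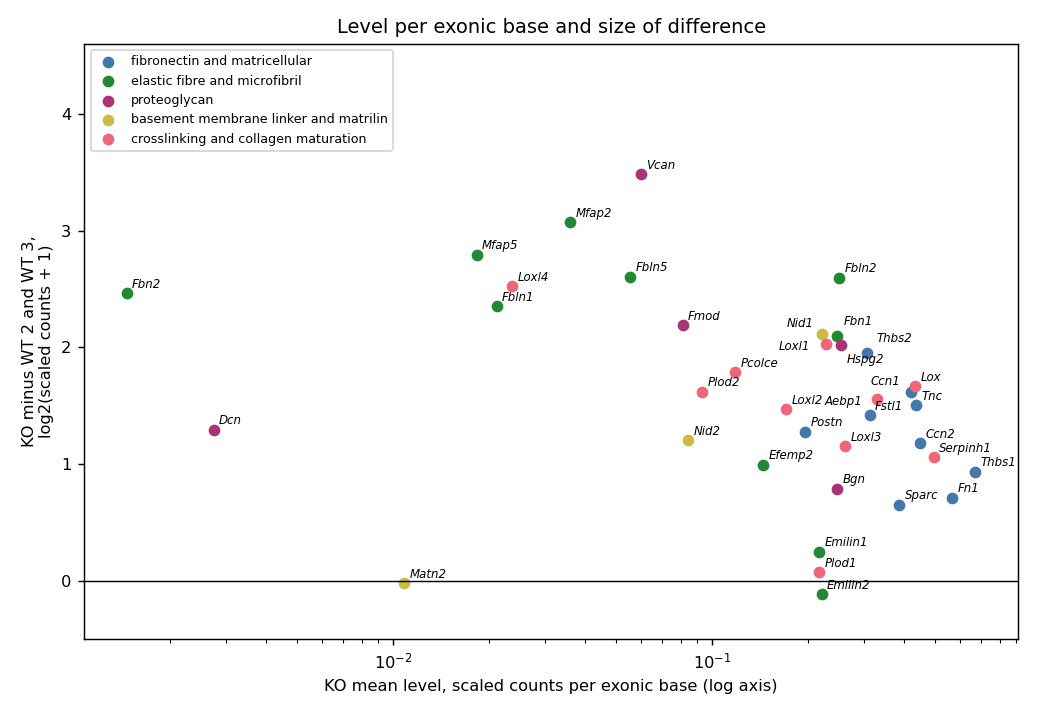
KO mean level in scaled counts per exonic base (horizontal log axis) and difference between KO and the mean of WT 2 and WT 3 in log2(scaled counts + 1) (vertical axis) for the 37 tested genes, coloured by role. Thbs1 and Fn1 at the right have differences of 0.94 and 0.71, Vcan at the top has 3.48, and Plod1, Emilin1, Emilin2 and Matn2 lie near 0.

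Within the KO group, library KO 3 was the lowest in 33 of the 37 genes, against 38.7% of all genes. The gap was mostly small, with a median of -0.17 on the log2 scale between KO 3 and the mean of KO 1 and KO 2, and in 19 genes the highest KO library was at most 1.2 times the lowest. In 4 genes (Vcan, Fmod, Fbn2 and Dcn) it was more than 2 times the lowest. Fbln5, at 503, 395 and 253, came next. KO 3 was also the lowest KO library in 14 of the 16 stromal markers, all but Thy1 and Twist2, by very unequal amounts. The chemokine gene Cxcl12 was at 1699, 1094 and 413 in the KO libraries and the receptor gene Pdgfra at 152, 131 and 58, while Col1a1 was at 3953, 3914 and 3767. The pericyte marker Cspg4 went the other way, at 313, 426 and 592. In Fn1, Tnc, Serpinh1 and Loxl4 the highest KO library was only 1.04, 1.02, 1.04 and 1.03 times the lowest. What part stromal cells had in the KO 3 values was not tested.

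**Figure D5:**
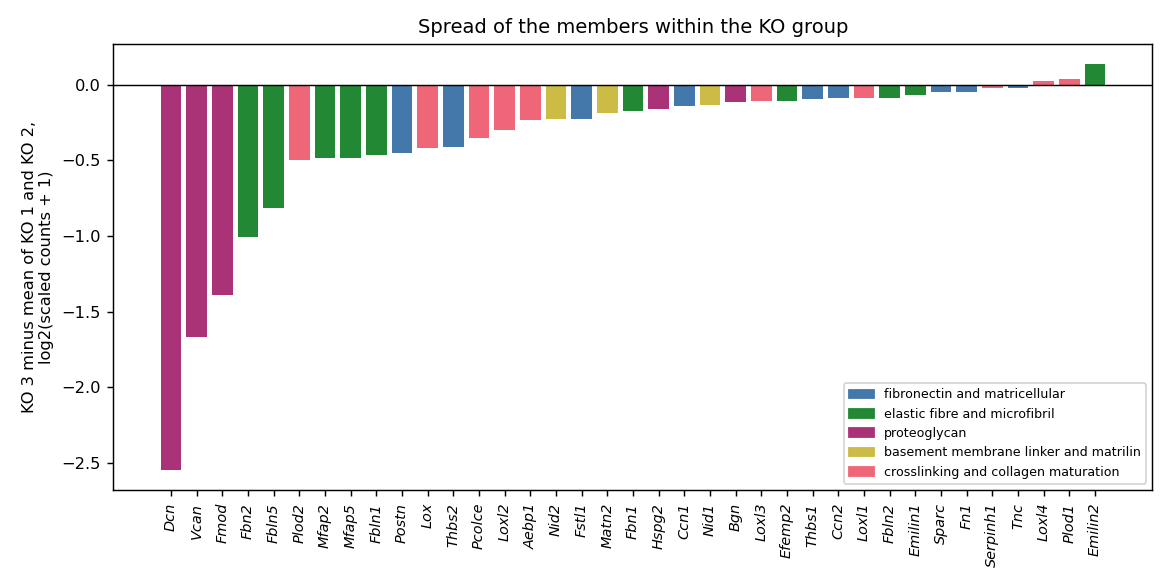
Difference between KO 3 and the mean of KO 1 and KO 2 in log2(scaled counts + 1) (vertical axis) for the 37 tested genes, sorted, with bars coloured by role. Bars are negative for all but Emilin2, Plod1 and Loxl4 and reach below -1 for Dcn, Vcan, Fmod and Fbn2.

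Many other matrix genes, from lists without the 38 described so far, were low and high in the same libraries. These lists were chosen with earlier results of these data known. Of 60 further glycoproteins and proteoglycans 48 were in the table and 32 were tested. With all libraries 0 passed in either direction (limma, adjusted over all genes). At an unadjusted p under 0.05, 19 were higher and 2 lower, against 14.7% and 9.68% of all genes. The KO mean was higher in 29, against 49.1%, and the median difference was 1.68 with all libraries and 0.46 against WT 1. Without WT 1, 20 were higher and 1 lower past the threshold, against 12.8% and 5.07% of all genes. Some passed the filter only through the libraries in which they were high, so these counts are descriptions. The most abundant of them were nearly constant: Tgfbi, a TGF-beta-induced adhesion protein gene, was at 1431, 1120 and 1228 in WT, with 1321, 1418 and 1358 in KO, and Spp1, which encodes osteopontin, was at 1117, 1104 and 1035 and at 1023, 1062 and 1052. Mfge8, the gene of a bridging protein for uptake of dying cells, was at 1117, 1274 and 1306 and at 1083, 1046 and 1048, and was the gene that was lower without WT 1 (limma adjusted p = 0.0157).

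Of 24 further crosslinking and collagen maturation genes, 23 were in the table and 21 were tested, with 0 past the threshold with all libraries (limma). At an unadjusted p under 0.05, 13 were higher and 0 lower, against 14.7% and 9.68% of all genes. The KO mean was higher in 16, against 49.1%, with a median difference of 1.00 and of 0.31 against WT 1. Without WT 1, 13 were higher and 0 lower past the threshold, against 12.8% and 5.07% of all genes. P4hb, the protein disulfide isomerase that is also a prolyl hydroxylase subunit, was at 1621, 1654 and 1497 in WT, with 1557, 1573 and 1580 in KO. Colgalt1, a collagen galactosyltransferase gene, was at 1433, 1562 and 1398 and at 1349, 1339 and 1384, and Tgm2, the transglutaminase gene, was at 1418, 1150 and 1236 and at 1395, 1365 and 1479. These leading genes, like Plod1, varied little across libraries, and none of the 3 passed without WT 1. Tgm2 was still lowest in WT 2 and WT 3 and just missed the threshold without WT 1 (limma adjusted p = 0.0503).

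Most receptors for matrix proteins varied little between libraries, and 4 of them shared the pattern of the matrix genes. The 19 receptor genes summed to between 31451 and 33393 in WT and between 31650 and 32070 in KO, and all 19 were tested. With all libraries 0 passed (limma), and at an unadjusted p under 0.05 4 were higher and 4 lower, against 14.7% and 9.68% of all genes. The groups did not overlap with KO higher in 2, against 16.1%, and with KO lower in 6, against 13.4%. The median difference was 0.013 with all libraries. Without WT 1, 4 were higher and 2 lower past the threshold, against 12.8% and 5.07% of all genes. The 4 were the collagen receptor genes Ddr1 and Ddr2, the collagen uptake receptor gene Mrc2 and the syndecan gene Sdc2. Ddr2 was at 905, 161 and 217 in WT, with 1306, 1252 and 819 in KO, and Mrc2 at 914, 234 and 188 and at 1276, 1092 and 950. Ddr1 was at 252, 67 and 77 and at 393, 313 and 336, and Sdc2 at 537, 204 and 203 and at 754, 653 and 483. WT 2 and WT 3 were the lowest libraries in all 4. The 2 lower ones were the thrombospondin receptor genes Cd36, at 1969, 2254 and 2324 and at 1506, 1589 and 1685, and Cd47, at 1197, 1371 and 1345 and at 1047, 1116 and 1117. The most abundant receptors had small differences. Lrp1, an endocytic receptor that clears matrix proteins, was at 10278, 11323 and 10293 in WT, with 9353, 9613 and 10091 in KO. The syndecan gene Sdc3 was at 3007, 3206 and 2901 and at 2765, 2659 and 2799, and Itgb1, the integrin subunit shared by fibronectin and collagen receptors, was at 2213, 2266 and 2118 and at 2094, 2088 and 2113. In each of these 3 the highest KO library was below the lowest WT library, with log2 differences of -0.13, -0.15 and -0.067, and none passed with or without WT 1.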

How the data were processed

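Poly(A) RNA-seq of 6 libraries was deposited as 1 table of 17313 genes. Libraries were made from 3 µg of total RNA with a strand-specific mRNA kit and read from one end for 72 bases, per the labels' protocols. Per the submitters' processing notes, the tools named are DESeq2 1.36.0, featureCounts 2.0.3, Picard 2.27.4, STAR 2.7.10a and Trimmomatic 0.39, with mm10 and no roles given. The deposited numbers are taken here as a score: read counts scaled by library and rounded: totals were nearly equal, and in WT 2 the values 6, 17, 29, 40 and 52 never occurred. The depth of each library before scaling is unknown, so no count model and no counting interval is given.

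The test was limma 3.58.1 (R 4.3.3) with its intensity trend, two-sided, run on log2(value + 1) for the 13260 genes that reached 10 in 3 or more libraries. Benjamini-Hochberg adjustment covered all of these genes, with a threshold of 0.05. Differences are KO minus WT on this scale, which understates changes of low genes. The model held only the group and was fitted on all 6 libraries. Single genes were also tested by exact permutation over libraries (SciPy 1.17.1). Exonic lengths are unions of exons in GENCODE M21, in which 17297 genes matched by identifier. The fit was tested on simulated data. All members were to be described, with values for those with a mean of at least 100, and up to 3 genes of highest mean from each other list. A few genes outside this rule (Pdgfrb, Cxcl12, Pdgfra, Lepr, Twist2, Thy1, Cspg4, Spi1, Ibsp, Ddr1, Ddr2, Mrc2, Sdc2, Cd36, Cd47 and low members) were named after their values were seen. The members and lists were chosen with earlier results of these data known. Alternatives were other scalings, filters, a pseudocount, no trend, a threshold of 0.1, each library left out, WT 1 as the only WT library, and the replicate number as a block.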

Additional observations from a re-analysis of the deposited data

How the results depend on the processing

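Over the alternatives, 0 of the tested matrix genes passed the adjusted threshold in every setting that kept all libraries, including a pseudocount of 8, no filter, a mean of at least 100, the rescalings, no trend and a threshold of 0.1. Leaving out 1 library at a time gave 0 to 31 genes higher, 31 only without WT 1, and over all genes 0 to 1691 higher and 0 to 672 lower. At an unadjusted p under 0.05, 29 matrix genes were higher, from 7 to 33 with 1 library left out (33 without WT 1, where 18.7% of all genes were) and 9 against WT 1 alone. The median difference of 1.10 ranged from 0.86 (without WT 2) to 1.55 (without WT 1) and was 0.22 against WT 1 alone. Signs turned for some genes. Under upper-quartile rescaling Matn2 was at -0.0045. Under cyclic loess Matn2 was at -0.12 and Emilin2 at 0.0058. With 1 library left out Matn2 ranged from -0.15 to 0.19. Against WT 1 alone Plod1 was at -0.014, Postn at -0.058, Emilin1 at -0.024 and Fbn2 at -0.14. Of these, Postn and Fbn2 were not near 0 with all libraries, at 0.83 and 1.60. The causes were not tested.

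With the replicate number as a block, 31 matrix genes were under 0.05 unadjusted and 0 after adjustment. Deviations of same-numbered libraries correlated at 0.534, -0.364 and 0.0238 over 13260 genes, so the numbers were not taken to pair the libraries. Depth before scaling limits what can be said of Lum, Dcn and Fbn2.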

Other observations

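Markers of skeletal and other cell types differed widely in level, as the values show. Among the osteoblast and chondrocyte markers, Col2a1, the cartilage collagen gene, was at 453, 253 and 123 scaled counts in WT, with 1083, 869 and 684 in KO, and Sox9, the cartilage transcription factor gene, was at 31, 9 and 4 and at 51, 47 and 49. Runx2, the osteoblast transcription factor gene, was at 245, 187 and 197 and at 292, 251 and 238, and Ibsp, the bone sialoprotein gene, at 4, 1 and 0 and at 37, 23 and 3. Ibsp did not reach the filter and was not tested, and the others did not pass the limma test with all libraries. Of 9 such markers 6 were in the table and 5 were tested, of which 3 were higher past the threshold without WT 1, against 12.8% of all genes. Of 5 epithelial or lung carcinoma markers only 2, Krt19 and Cdh1, were in the table. Krt19, a keratin gene of epithelia, was at 22, 10 and 1 in WT, with 95, 73 and 75 in KO. Its log2 difference was 3.35 (limma adjusted p = 0.158). Cdh1 was near 0, at 3, 0 and 1 and at 6, 1 and 3, and was not tested. Of the 4 tested vessel markers only Vwf had the lower mean in KO, at 626, 1374 and 790 in WT, with 316, 404 and 640 in KO. Kdr, a receptor of vascular growth factor, was at 124, 69 and 63 and at 116, 99 and 129. Among adipocyte markers Fabp4, which macrophages also express, was at 209, 278 and 287 and at 164, 166 and 187. The B cell receptor component Cd79b was at 17, 9 and 12 and at 29, 34 and 39. Of the 5 platelet markers in the table, Pf4 made up most of the sum, at 308, 304 and 274 and at 272, 283 and 284, and the others were at 20 or less in each library. The neutrophil and precursor markers summed to at most 34, and of the T and NK cell markers Klrb1c, at 11 to 23, was the only one in the table.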
